A study of Mus musculus with 6 samples.

Results

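The nuclear-encoded subunits of the mitochondrial respiratory chain were examined in mouse macrophages labelled Tet2-deficient and in wild-type ones, all under an inflammatory stimulus. Members were chosen by gene symbol: the Ndufa, Ndufb, Ndufc, Ndufs and Ndufv subunits, Sdha to Sdhd, the Uqcr, Cox4i, Cox5, Cox6, Cox7, Cox8 and Atp5 genes, and Cycs. This rule found 78 of 25206 gene-level features, of which 32 belonged to complex I, 4 to complex II, 7 to complex III, 19 to complex IV and 12 to complex V. The others were Cycs, which encodes cytochrome c, and 3 pseudogenes (Ndufs5-ps, Uqcrh-ps1 and Atp5c1-ps). Ndufa4 and its relative Ndufa4l2 were counted with complex IV, where the Ndufa4 protein is now placed, although their names refer to complex I. Atp5g1, Atp5g2 and the subunits encoded in mitochondrial DNA were not analysed here.

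The cells were macrophages that 1 mL of 4% Brewer's thioglycollate broth, injected into the abdomen, had drawn there within 4 days. One group of 3 biological replicates came from Tet2-/- mice and the other, also of 3, from wild-type littermates, all C57BL/6J. No source used here gives their ages or says whether mice were pooled. Tet2 is an enzyme that oxidises 5-methylcytosine in DNA. The labels name no promoter or Cre line that would limit the deletion to 1 cell type. Every culture of both groups received 10 ng/mL lipopolysaccharide, a bacterial product sensed by toll-like receptor 4, and 2 ng/mL interferon gamma for 10 h, and no unstimulated culture entered the comparison. Each culture gave 1 Affymetrix whole-transcript array. Values are log2 expression, each change is the Tet2-deficient mean minus the wild-type mean, given ± its standard error from limma (3 arrays in each group), and the threshold was an adjusted p of 0.05 over all features.

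The respiratory chain sits in the inner mitochondrial membrane. Complex I takes electrons from NADH and complex II takes them from succinate, both pass them to ubiquinone, complex III hands them to cytochrome c, and complex IV reduces oxygen. Complexes I, III and IV pump protons, and complex V, the ATP synthase, uses the gradient. In macrophages, lipopolysaccharide with interferon gamma is known to shift energy metabolism towards glycolysis, and succinate oxidation and complex I are known sources of reactive oxygen species in activated cells.

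The Tet2 feature read 5.55, 5.25 and 5.75 in the arrays labelled Tet2-deficient, against wild-type readings of 5.40, 5.07 and 5.10 (log2 change 0.32 ± 0.16, adjusted p = 0.365), so it was not lower. No source used here gives the deleted part of the gene or where the probes lie, and probes outside the deletion check nothing. All directions therefore depend on the labels of the arrays. Array medians lay at 3.47 to 3.60 in Tet2-deficient and 3.54 to 3.66 in wild-type arrays, and the median log2 change of all features was -0.04. All 7 measured macrophage markers, such as Csf1r and Cd68, lay above the median level of all features. Of these 5 had a positive change, and Cd14 and Itgam rose. Cd68 had 0.00 ± 0.11, and Fcgr1 (-0.51 ± 0.19, adjusted p = 0.230) and Mertk (-0.10 ± 0.12) had a negative change. The mean level of the list was 10.01 to 10.15 in Tet2-deficient and 9.76 to 9.82 in wild-type arrays. Some markers of resident peritoneal macrophages moved with the groups. Of 7 such genes Timd4 rose and 4 had higher values in every Tet2-deficient array. Gata6 (0.23 ± 0.21, adjusted p = 0.657), Garnl3 (0.13 ± 0.16) and Selp (0.07 ± 0.13) had overlapping groups. Over all features 0.647% rose and 9.74% were higher in every Tet2-deficient array (16.6% of those above the median level). The mean level of the 7 genes was 5.46 to 5.96 in Tet2-deficient and 4.89 to 5.16 in wild-type arrays. Mean levels of neutrophil, B cell, mast cell and eosinophil, and mesothelial and fibroblast markers overlapped between the groups, as did those of T and NK cells. In the mesothelial and fibroblast list 8 of 10 genes had a positive change (median 0.26), and Dcn, a matrix protein of fibroblasts, was higher in every Tet2-deficient array (1.26 ± 0.28, adjusted p = 0.0715). The part of a different mixture of macrophages or of fibroblasts in the values below was not tested, and in whole cultures fewer cells of a kind and less RNA per cell cannot be told apart.

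Transcripts of respiratory chain subunits were lower in the macrophages labelled Tet2-deficient, by small amounts and in all 5 complexes. Of the 78 members, 64 had a negative log2 change and the median change was -0.23, beside -0.04 over all features. In 38 members (48.7%) every Tet2-deficient array lay below every wild-type array, where the background over all features was 12.2%. The opposite order, all Tet2-deficient arrays above all wild-type arrays, held for 2 members (background 9.74%). Few single genes passed the threshold: Ndufv3 of complex I and Atp5e of complex V fell and no member rose (1 was higher at an unadjusted p under 0.05), against a background of 0.305% lower, 0.647% higher and 0.952% in either direction. Another 9 members, all lower, had an adjusted p between 0.05 and 0.1, and 31 members were lower at an unadjusted p under 0.05 (background 8.37%, and 7.63% higher). The 38 members lower without overlap became 34 with arrays centred on their medians and 37 with cyclic loess, while the shares of all features with that order were 7.17% and 10.7%.

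Complexes I to V had medians of -0.28, -0.23, -0.26, -0.20 and -0.20, and their ranges overlapped broadly. With arrays centred on their medians these became -0.21, -0.16, -0.20, -0.13 and -0.13, and with Ndufa4 and Ndufa4l2 counted in complex I, as their names have it, complex IV had -0.088 and complex I still -0.28. Members lower without overlap numbered 16 of 32 in complex I, 2 of 4 in complex II, 4 of 7 in complex III, 8 of 19 in complex IV and 6 of 12 in complex V. The share over all features was 12.2%. Differences between complexes were not tested. Taken array by array, the median deviation of the 78 members from their mean over the 6 arrays was -0.11, -0.08 and -0.17 in Tet2-deficient and 0.11, 0.10 and 0.14 in wild-type arrays. For all features the same medians were -0.03, -0.00 and -0.02 in Tet2-deficient and -0.00, 0.02 and 0.01 in wild-type arrays. The lower level was present in each of the 3 Tet2-deficient arrays, and lowest in replicate 3.

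**Figure D1:**
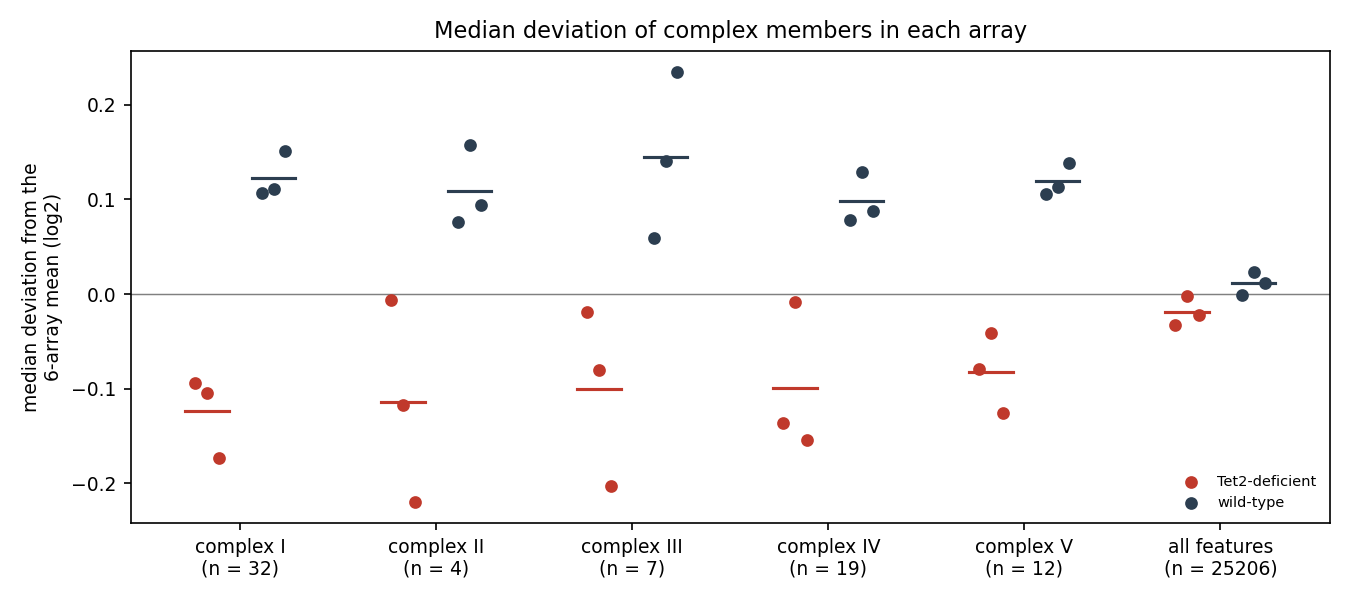
Median deviation (log2) of the members of each complex, and of all 25206 features, from their mean over the 6 arrays; each point is 1 array and each bar the mean of 3, Tet2-deficient left of wild-type. In every complex the 3 Tet2-deficient arrays lie below 0 and the 3 wild-type arrays above it, and complexes II and IV come nearest to 0, each with 1 Tet2-deficient array at -0.01.

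The members past the threshold are accessory or stalk subunits. Ndufv3 encodes an accessory subunit at the NADH-oxidising tip of complex I. It read 5.36, 5.34 and 5.32 in the arrays labelled Tet2-deficient, against 5.99, 5.92 and 5.87 in the wild-type arrays. The values within each group were close together, and Ndufv3 fell by 0.59 on the log2 scale (SE 0.11, adjusted p = 0.0453). Atp5e encodes the epsilon subunit of the rotating central stalk of ATP synthase. It read 7.22, 7.62 and 7.38 in the arrays labelled Tet2-deficient, against 8.09, 8.15 and 8.24 in the wild-type arrays. All 3 Tet2-deficient values lay under the lowest wild-type value, and Atp5e fell by 0.75 (SE 0.13, adjusted p = 0.0383). These calls were narrow. When single arrays were left out, Ndufv3 failed the threshold in all 6 fits (adjusted p = 0.0853 to 0.169), as it did after centring on array medians (0.0863). Atp5e passed in only 1 of those 6 fits, the one that left out Tet2-deficient replicate 2 (adjusted p = 0.0478, and up to 0.157 in the others), and failed once a trend with gene span and level was removed (0.0613). In a limma fit with the replicate number as a block, neither gene passed (adjusted p = 0.0693 for Ndufv3 and 0.0508 for Atp5e). The smallest p of an exact permutation test with 3 arrays against 3 is 0.1, so none was used.

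The 250 bases upstream of the annotated start are shown for these genes and for Ndufa7 and Uqcrh, which with Atp5e had the largest negative changes among all members. They come from RefSeq for GRCm38.p6, 5′ to 3′ on the strand of the gene, and for Ndufa7 the window furthest upstream is given. Capitals mark the letters CCGGAAG or its reverse complement, bound by GABPA, a factor known to drive many respiratory genes, in Atp5e and Uqcrh, and TATAAA or its reverse complement in Ndufa7.
Ndufv3 (chr17:31519865-31520114, plus strand): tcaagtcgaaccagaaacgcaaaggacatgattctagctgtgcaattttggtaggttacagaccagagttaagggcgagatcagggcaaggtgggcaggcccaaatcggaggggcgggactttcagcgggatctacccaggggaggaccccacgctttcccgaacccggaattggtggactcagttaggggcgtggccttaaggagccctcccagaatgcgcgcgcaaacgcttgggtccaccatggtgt
Atp5e (chr2:174464102-174464351, minus strand): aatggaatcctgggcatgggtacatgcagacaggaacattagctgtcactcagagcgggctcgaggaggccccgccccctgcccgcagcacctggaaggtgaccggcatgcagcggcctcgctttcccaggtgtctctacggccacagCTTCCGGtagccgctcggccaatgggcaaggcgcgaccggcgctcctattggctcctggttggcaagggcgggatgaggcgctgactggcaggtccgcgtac
Ndufa7 (chr17:33824322-33824571, plus strand): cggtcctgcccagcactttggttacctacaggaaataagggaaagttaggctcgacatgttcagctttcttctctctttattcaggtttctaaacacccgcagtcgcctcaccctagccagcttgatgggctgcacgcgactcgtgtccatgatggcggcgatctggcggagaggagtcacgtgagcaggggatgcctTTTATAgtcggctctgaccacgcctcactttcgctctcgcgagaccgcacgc
Uqcrh (chr4:116075071-116075320, minus strand): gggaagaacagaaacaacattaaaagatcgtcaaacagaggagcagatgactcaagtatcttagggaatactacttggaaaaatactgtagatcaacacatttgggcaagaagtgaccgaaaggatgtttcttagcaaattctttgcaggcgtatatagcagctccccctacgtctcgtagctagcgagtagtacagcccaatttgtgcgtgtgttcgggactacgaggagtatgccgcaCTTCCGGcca
The CCGGAAG letters began 102 bases before the start in Atp5e and 10 bases before it in Uqcrh, and the TATAAA letters 52 bases before it in Ndufa7. The Ndufv3 window held none of the 4 motifs searched.

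Complex I is the largest of the complexes, with core subunits that carry the flavin and the iron-sulphur clusters and a shell of accessory subunits. All 6 measured core subunits encoded in the nucleus had a negative change (median -0.15). Of these 1 was lower without overlap (16.7%, beside 12.2% of all features and 14.5% of those above the median level). That was Ndufv2, which holds an iron-sulphur cluster beside the flavin and read 7.47, 7.50 and 7.34 in Tet2-deficient and 7.72, 7.79 and 7.82 in wild-type arrays (-0.34 ± 0.11, adjusted p = 0.185). Its partner Ndufv1, which binds NADH and the flavin, read 6.35, 6.59 and 6.40 in Tet2-deficient and 6.77, 6.63 and 6.59 in wild-type arrays, with overlapping groups (-0.22 ± 0.12, adjusted p = 0.437). The cluster-bearing Ndufs1 (-0.09 ± 0.14), Ndufs7 (-0.05 ± 0.14) and Ndufs8 (-0.02 ± 0.14) had changes smaller than their standard errors. Ndufs3 had -0.33 ± 0.19, where wild-type replicate 3 at 5.83 stood above the other wild-type arrays at 5.09 and 5.32.

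Among the 26 accessory subunits of complex I, 22 had a negative change and the median was -0.33. In this set 15 were lower without overlap (57.7%, background 12.2%) and 1 fell (Ndufv3, background 0.305%). Ndufa7, an accessory subunit of the matrix arm, read 6.29, 6.55 and 6.57 in the arrays labelled Tet2-deficient, against 7.51, 6.96 and 7.50 in the wild-type arrays. It had the most negative change of all 78 members, 0.556-fold the wild-type level (-0.85 ± 0.17, adjusted p = 0.0553), and its wild-type values were spread, with replicate 2 lowest. Without that array it passed (adjusted p = 0.0427). Ndufb7 and Ndufb10, subunits of the membrane arm that face the intermembrane space, read 6.54, 6.68 and 6.65 in Tet2-deficient and 7.12, 7.19 and 7.35 in wild-type arrays, and 5.98, 5.73 and 6.07 in Tet2-deficient and 6.45, 6.63 and 6.50 in wild-type arrays. Their groups were apart by more than the spread within either, at -0.60 ± 0.12, adjusted p = 0.0553 for Ndufb7 and -0.60 ± 0.13, adjusted p = 0.0701 for Ndufb10. Ndufb8, a membrane-arm subunit often used as a protein marker of complex I, read 5.76, 5.95 and 5.91 in Tet2-deficient and 6.37, 6.28 and 6.54 in wild-type arrays (-0.52 ± 0.12, adjusted p = 0.0845).

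Other accessory subunits lower in every Tet2-deficient array were Ndufa1 (-0.51 ± 0.14), Ndufb5 (-0.47 ± 0.15), Ndufb2 (-0.46 ± 0.15), Ndufs4 (-0.44 ± 0.12), Ndufs6 (-0.38 ± 0.13), Ndufa13 (-0.37 ± 0.12), Ndufa9 (-0.29 ± 0.13), Ndufa2 (-0.26 ± 0.12), Ndufc2 (-0.19 ± 0.11) and Ndufb9 (-0.19 ± 0.11). Ndufs4, needed for a stable NADH-oxidising module and mutated in Leigh syndrome, read 7.28, 7.22 and 7.06 in the arrays labelled Tet2-deficient, against 7.53, 7.62 and 7.74 in the wild-type arrays (adjusted p = 0.119). Ndufa13, also known as GRIM-19, read 6.94, 6.77 and 6.68 in Tet2-deficient and 7.10, 7.12 and 7.27 in wild-type arrays (adjusted p = 0.189). In both genes the groups were separate, and neither passed the threshold. The accessory subunits with changes above 0 were Ndufa12 (0.14 ± 0.18), Ndufa8 (0.05 ± 0.12), Ndufa10 (0.05 ± 0.14) and Ndufb6 (0.00 ± 0.14), all with overlapping groups. Ndufb3 read under the median level of all features in every array, between 0.83 and 2.28, with a change of -0.53 ± 0.29 and overlapping groups. The remaining 6 accessory subunits had changes of -0.37 to -0.04 and overlapping groups.

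**Figure D2:**
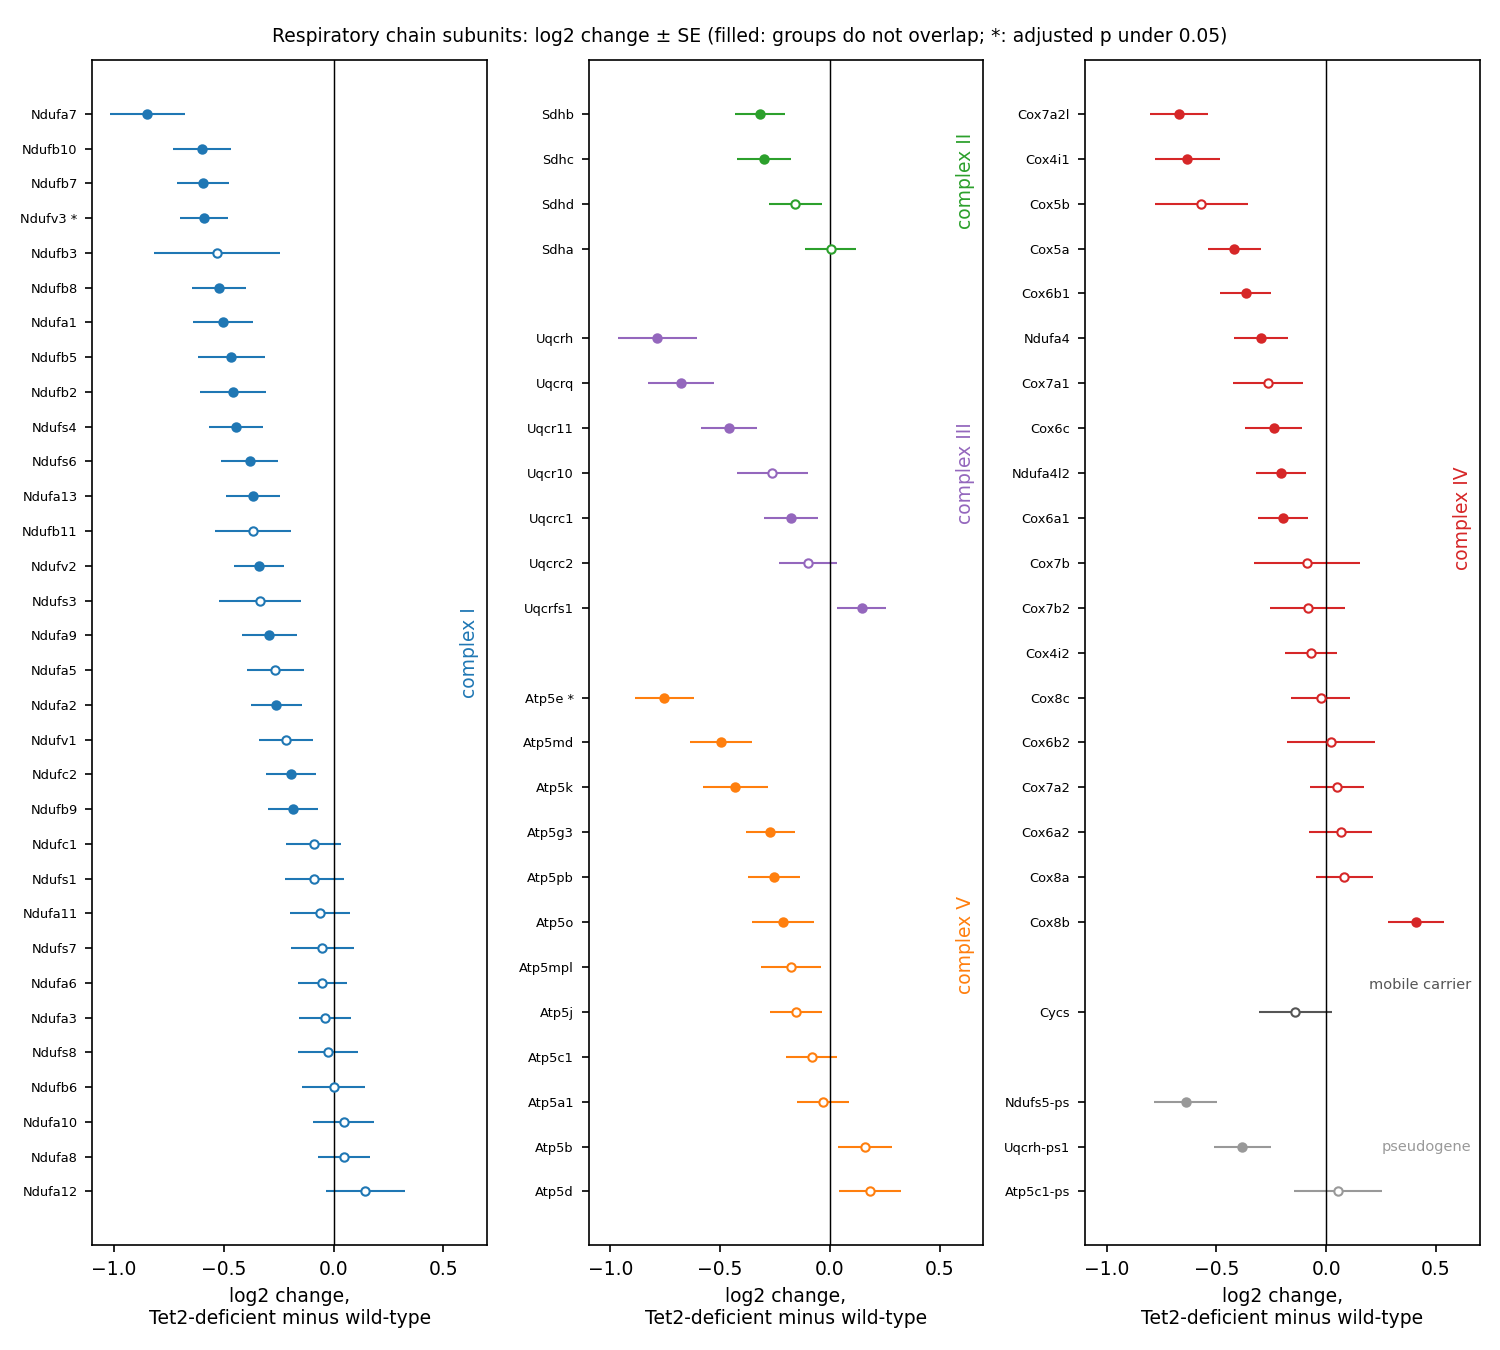
Log2 change (x axis, Tet2-deficient minus wild-type) of each of the 78 members with its standard error, grouped by complex and sorted by change; filled points are members whose groups do not overlap and a star beside the name marks those past an adjusted p of 0.05. Most points lie left of 0 in every complex, from Ndufa7 at -0.85 to Cox8b at 0.41.

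Complex II is also an enzyme of the citrate cycle and has no subunit in mitochondrial DNA. Its flavoprotein Sdha, which oxidises succinate, read 8.65, 8.58 and 8.63 in the arrays labelled Tet2-deficient, against 8.73, 8.50 and 8.62 in the wild-type arrays, with a change of 0.00 ± 0.12. Sdhb, which carries the iron-sulphur clusters, read 7.62, 7.60 and 7.46 in the arrays labelled Tet2-deficient, against 7.88, 7.92 and 7.82 in the wild-type arrays (-0.32 ± 0.11, adjusted p = 0.211). Sdhb was thus lower in every Tet2-deficient array while the Sdha groups overlapped, and the difference between these genes was not tested. Of the membrane anchors that hold the ubiquinone site, Sdhc read 7.14, 7.06 and 6.89 in Tet2-deficient and 7.22, 7.40 and 7.37 in wild-type arrays (-0.30 ± 0.12, adjusted p = 0.271). Sdhd read 7.83, 7.64 and 7.58 in Tet2-deficient and 7.81, 7.87 and 7.84 in wild-type arrays, with overlapping groups (-0.16 ± 0.12, adjusted p = 0.579).

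In complex III the iron-sulphur subunit and the small accessory subunits lay on opposite sides of 0. Cyc1, the cytochrome c1 of this complex, was left out by the symbol rule and had a negative change, given below. Uqcrfs1, the Rieske protein that passes electrons to cytochrome c1, read 5.88, 5.83 and 5.84 in the arrays labelled Tet2-deficient, against 5.67, 5.80 and 5.64 in the wild-type arrays. It was higher in each Tet2-deficient array by a small margin (0.15 ± 0.11, adjusted p = 0.585). Uqcrh, the hinge protein between cytochrome c1 and cytochrome c, read 8.53, 9.22 and 8.96 in the arrays labelled Tet2-deficient, against 9.59, 9.59 and 9.89 in the wild-type arrays. It had 0.580-fold the wild-type level (-0.79 ± 0.18, adjusted p = 0.0772), with the Tet2-deficient values further apart than the wild-type ones. Uqcrq, which lies next to cytochrome b, read 7.59, 8.05 and 7.55 in the arrays labelled Tet2-deficient, against 8.46, 8.34 and 8.42 in the wild-type arrays (-0.68 ± 0.15, adjusted p = 0.0715), and without Tet2-deficient replicate 2 it passed (0.0452). Uqcr11 was lower in every array as well, at 5.09, 5.22 and 5.20 in Tet2-deficient and 5.46, 5.79 and 5.64 in wild-type arrays (-0.46 ± 0.13, adjusted p = 0.120). The large core proteins were closer to 0, with Uqcrc1 at -0.18 ± 0.12 and groups apart, and Uqcrc2 at -0.10 ± 0.13 and groups overlapping. Uqcr10 had -0.26 ± 0.16, also with overlapping groups. Uqcrh has a processed copy among the members, Uqcrh-ps1, which read 1.47, 1.58 and 1.29 in Tet2-deficient and 1.97, 1.72 and 1.79 in wild-type arrays (change -0.38 ± 0.13), all under the median level of all features. Uqcrh and Uqcrh-ps1 thus read far apart, but how much of either signal came from near-identical copies was not tested. Nor was it tested for Ndufs5-ps, whose parent gene Ndufs5 is not among the members, or for Atp5c1-ps (0.05 ± 0.20). Ndufs5-ps read 6.21, 6.28 and 6.28 in Tet2-deficient and 6.98, 6.61 and 7.09 in wild-type arrays (-0.64 ± 0.14, adjusted p = 0.0727).

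Complex IV has subunits with several isoforms, some made in most tissues and others in muscle, testis or lung. The 8 widely expressed forms had a median change of -0.25, with 5 lower without overlap (62.5%). The 3 subunits known in 1 form, Cox5a, Cox5b and Cox6c, had a median of -0.42, with 2 lower without overlap (66.7%). The background over all features was 12.2%. The 8 restricted forms had a median of -0.05, and none was above 4.30 in any array. Cox4i1, the large regulatory subunit, read 8.41, 8.91 and 8.70 in the arrays labelled Tet2-deficient, against 9.20, 9.31 and 9.41 in the wild-type arrays (-0.63 ± 0.15, adjusted p = 0.0820). Its restricted form Cox4i2, known from lung and from cells short of oxygen, read 3.81, 4.07 and 3.91 in Tet2-deficient and 4.00, 3.95 and 4.04 in wild-type arrays (-0.07 ± 0.12). Cox4i1 groups did not overlap, while Cox4i2 groups did. Cox7a2l, a factor that joins complexes III and IV into supercomplexes and of which C57BL/6 mice are known to carry a shortened form, read 4.55, 4.48 and 4.73 in the arrays labelled Tet2-deficient, against 5.29, 5.10 and 5.39 in the wild-type arrays. It was just short of the threshold (-0.67 ± 0.13, adjusted p = 0.0523) and passed under 5 of 14 other fits, among them removal of the span and level trend (0.0444).

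Cox5a, a subunit on the matrix side, read 8.05, 7.82 and 7.84 in Tet2-deficient and 8.27, 8.39 and 8.31 in wild-type arrays (-0.42 ± 0.12, adjusted p = 0.132), and Cox6b1, which faces cytochrome c, averaged 7.60 ± 0.10 in Tet2-deficient and 7.97 ± 0.05 in wild-type arrays (mean ± SD, n = 3 each), a change of -0.37 ± 0.12, adjusted p = 0.165. In both the groups were separate. Ndufa4 averaged 7.89 ± 0.14 in Tet2-deficient and 8.19 ± 0.07 in wild-type arrays (mean ± SD, n = 3 each), a change of -0.30 ± 0.12, adjusted p = 0.279, and its relative Ndufa4l2, known as a target of hypoxia-inducible factor, read 2.38 to 2.71 over the 6 arrays, under the median level of all features (-0.21 ± 0.11, groups apart). Cox6c (-0.24 ± 0.13) and Cox6a1 (-0.20 ± 0.11) were lower without overlap by small amounts. Cox5b read 2.97, 3.45 and 3.11 in Tet2-deficient and 3.40, 3.64 and 4.19 in wild-type arrays, with wild-type replicate 3 far above the others and overlapping groups (-0.57 ± 0.21). Cox7a2 (0.05 ± 0.12) and Cox8a (0.08 ± 0.13) had changes above 0, smaller than their standard errors. Cox7b read 1.94 to 2.88 over the 6 arrays (-0.09 ± 0.24).

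Among the restricted forms, Cox8b, known from heart and skeletal muscle, was the member with the largest positive change. It read 2.45, 2.30 and 2.57 in the arrays labelled Tet2-deficient, against 1.90, 2.15 and 2.04 in the wild-type arrays, all under the median level of all features (0.41 ± 0.13, adjusted p = 0.162). The muscle forms Cox6a2 (0.07 ± 0.14) and Cox7a1 (-0.26 ± 0.16) and the testis forms Cox6b2 (0.02 ± 0.20), Cox7b2 (-0.08 ± 0.17) and Cox8c (-0.03 ± 0.14) had overlapping groups. Over all features at or below the median level the median change was -0.06, and 9.99% were lower without overlap. Of the 11 members at that level, 2 were lower without overlap and their median was -0.09, whereas 36 of the 67 members above it were (53.7%, median -0.26), beside 14.5% (median -0.01) of all features above it.

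In complex V the catalytic head and the stalks were measured by several features each. The head subunits Atp5a1 and Atp5b, where ATP is made, had -0.03 ± 0.12 and 0.16 ± 0.12. Atp5b read 10.11, 10.01 and 9.81 in the arrays labelled Tet2-deficient, against 9.77, 9.82 and 9.86 in the wild-type arrays, with overlapping groups. In the central stalk, Atp5c1 (gamma) had -0.08 ± 0.12 and Atp5d (delta) 0.18 ± 0.14, both with overlapping groups, beside the fall of Atp5e (epsilon). Atp5g3, 1 of the genes for the c subunit of the membrane rotor, read 7.82, 7.97 and 7.88 in Tet2-deficient and 8.19, 8.12 and 8.18 in wild-type arrays (-0.27 ± 0.11, adjusted p = 0.272). Of the peripheral stalk that holds the head still, Atp5pb (-0.26 ± 0.12) and Atp5o (-0.21 ± 0.14) were lower without overlap, and Atp5j had -0.15 ± 0.12. The small membrane proteins Atp5md, known to help keep ATP synthase complexes together, and Atp5k were lower in every array. Atp5md read 8.43, 8.77 and 8.38 in the arrays labelled Tet2-deficient, against 8.89, 9.04 and 9.14 in the wild-type arrays (-0.49 ± 0.14, adjusted p = 0.132). Atp5k read 7.95, 8.38 and 8.05 in Tet2-deficient and 8.39, 8.67 and 8.61 in wild-type arrays (-0.43 ± 0.15, adjusted p = 0.195), and Atp5mpl had -0.18 ± 0.14 with overlapping groups.

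Cycs, the mobile carrier between complexes III and IV, read 3.45, 3.20 and 3.09 in the arrays labelled Tet2-deficient, against 3.71, 3.20 and 3.24 in the wild-type arrays, near the array medians given above. Its groups overlapped (-0.14 ± 0.17, adjusted p = 0.745).

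**Figure D3:**
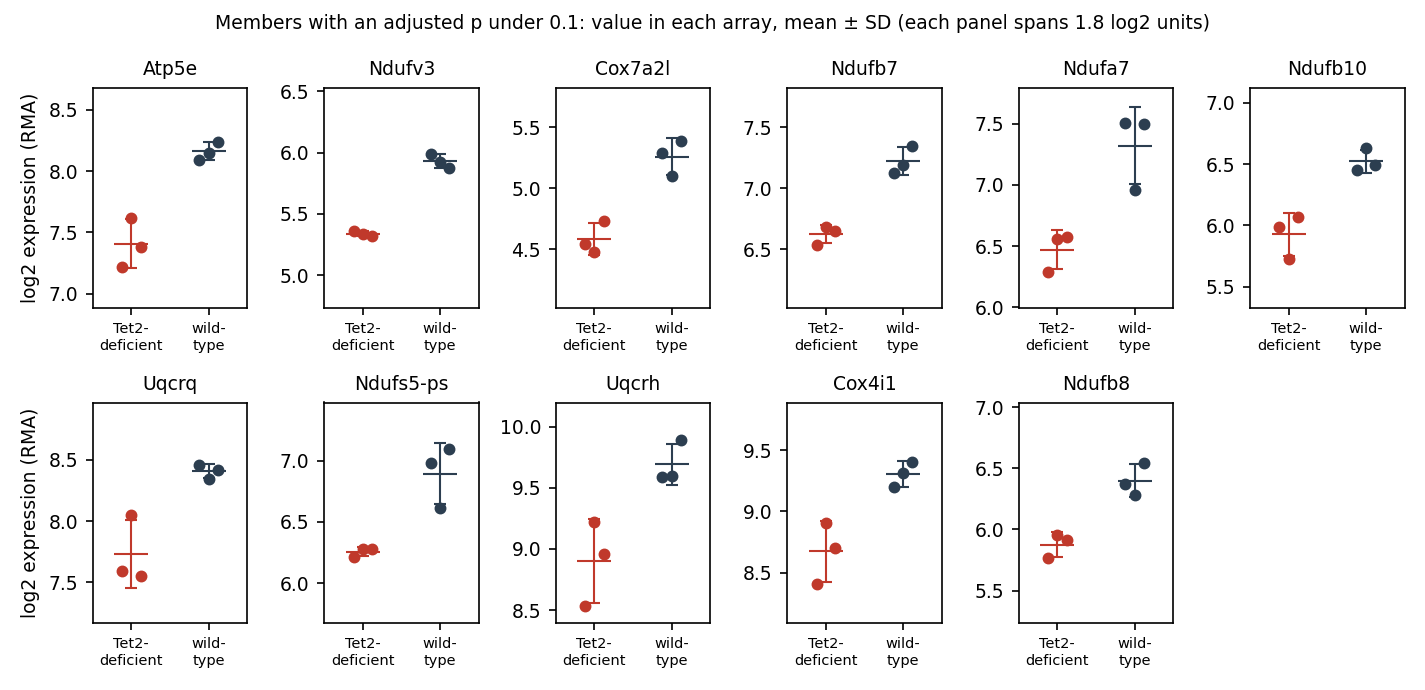
Log2 expression in each array (points) with mean ± SD (n = 3) for the 11 members with an adjusted p under 0.1, Tet2-deficient left of wild-type; each panel spans the same number of log2 units. In all 11 the groups do not overlap, and the Tet2-deficient values are the lower ones.

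Genes needed to build or feed the chain were taken from lists of textbook members. Of 53 measured assembly factors 0 rose and 0 fell by limma (13 lower and 4 higher at an unadjusted p under 0.05), 39 had a negative change, 20 were lower without overlap (37.7%, background 12.2%), 4 were higher without overlap (background 9.74%) and the median was -0.16. The 4 higher ones were Sco2, a copper chaperone of complex IV (0.50 ± 0.19, adjusted p = 0.235), Nubpl (0.27 ± 0.12), Bcs1l (0.23 ± 0.11) and Dmac1 (0.11 ± 0.11). Sco1, a partner of Sco2 in copper delivery, read 6.41, 6.31 and 6.67 in the arrays labelled Tet2-deficient, against 7.13, 7.08 and 7.37 in the wild-type arrays. It was just short of the threshold (-0.73 ± 0.14, adjusted p = 0.0515), as was Cox20, a chaperone of the same complex, at -0.54 ± 0.11, adjusted p = 0.0568. Uqcc3, an assembly factor of complex III, had -0.48 ± 0.11, adjusted p = 0.0824, Ndufaf2 of complex I -0.49 ± 0.14, adjusted p = 0.134, and Sdhaf4 of complex II -0.48 ± 0.13, adjusted p = 0.116. For complex V the median of 4 factors was -0.10 with all groups overlapping. Of 6 further genes of the chain that the symbol rule left out 0 passed by limma (1 lower at an unadjusted p under 0.05). Of these 2 were lower without overlap (33.3%, background 12.2%) and the median was -0.07. The ATP synthase inhibitor Atpif1 had -0.50 ± 0.14, adjusted p = 0.118, and Cyc1, the cytochrome c1 of complex III, -0.25 ± 0.12, adjusted p = 0.366. Hccs, which attaches haem to cytochrome c, had 0.20 ± 0.13, and Cyct, Ndufab1 and Micos10 had -0.09, -0.04 and -0.04, all 4 with overlapping groups.

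Regulators of mitochondrial gene expression had values on both sides of 0. Of 12 such genes 0 passed by limma (1 at an unadjusted p under 0.05, Nrf1), 5 had a negative change and the median was 0.01. Without overlap 1 was lower and 1 higher (8.33% each), beside 12.2% lower and 9.74% higher over all features. The background by limma was 0.952% past the threshold, with 8.37% lower and 7.63% higher at an unadjusted p under 0.05. Nrf1, a transcription factor for many respiratory genes, read 5.83, 5.47 and 5.99 in the arrays labelled Tet2-deficient, against 5.42, 5.50 and 5.26 in the wild-type arrays (0.37 ± 0.15, adjusted p = 0.275). Gabpa was higher in each Tet2-deficient array (0.25 ± 0.12, adjusted p = 0.349), and Tfam, which packages and transcribes mitochondrial DNA, was lower in each (-0.29 ± 0.17, adjusted p = 0.445). The co-activator Ppargc1b had -0.33 ± 0.16, adjusted p = 0.346. Genes of ubiquinone synthesis had a median of 0.01 over 12 genes, with 0 past the threshold by limma and 1 lower and 1 higher at an unadjusted p under 0.05. Without overlap 2 were lower and 2 higher (16.7% each). Coq5 had 0.36 ± 0.15, Coq9 -0.31 ± 0.13 and Coq7 -0.27 ± 0.13, each with groups apart. Among 8 other enzymes that feed electrons into the chain 0 passed by limma (1 lower and 2 higher at an unadjusted p under 0.05). Sqor, which oxidises sulphide, had 0.50 ± 0.14, adjusted p = 0.132 and Gpd2, the mitochondrial glycerol-phosphate dehydrogenase, 0.30 ± 0.12, both higher in every Tet2-deficient array, and Etfb, a subunit of the electron-transferring flavoprotein, -0.40 ± 0.13, lower in every array.

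Respiratory chain genes are short, and short genes as a whole were lower in these arrays. The median span of the members was 7106.5 bases, beside 15555 over all features, and the shortest and longest members that are no pseudogenes were Cox6a2 (932 bases) and Cox7b2 (105383 bases). Over all features above the median level, split into 4 classes of span, the shortest class had a median change of -0.12 and 25.2% lower without overlap, and the longest class had 0.13 and 7.09%. Across those 11766 features Spearman's rho between span and change was 0.32, and across the 78 members it was 0.02; both are across genes, which share the same 6 arrays. Members in the shortest class (26 genes) had a median of -0.26 with 11 lower without overlap, beside a median of -0.08 and a share of 15.2% over all features of that class, whatever their level. Those in the next class (38 genes) had -0.23 with 21 lower, beside -0.06 and 13.5%. In the third class (12 genes) the median was -0.09 with 5 lower, beside -0.03 and 11.5%, and the longest class held 2 members, of which 1 was lower. After a trend with span and level was taken out of each array, the median of the members was -0.22 and 34 were lower without overlap, beside a median of -0.06 and a share of 14.5% over all features treated alike. The median of the members minus that of all features was -0.16 after this removal and -0.19 before it. The part of RNA quality, which can act on transcripts by length, was not tested.

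**Figure D4:**
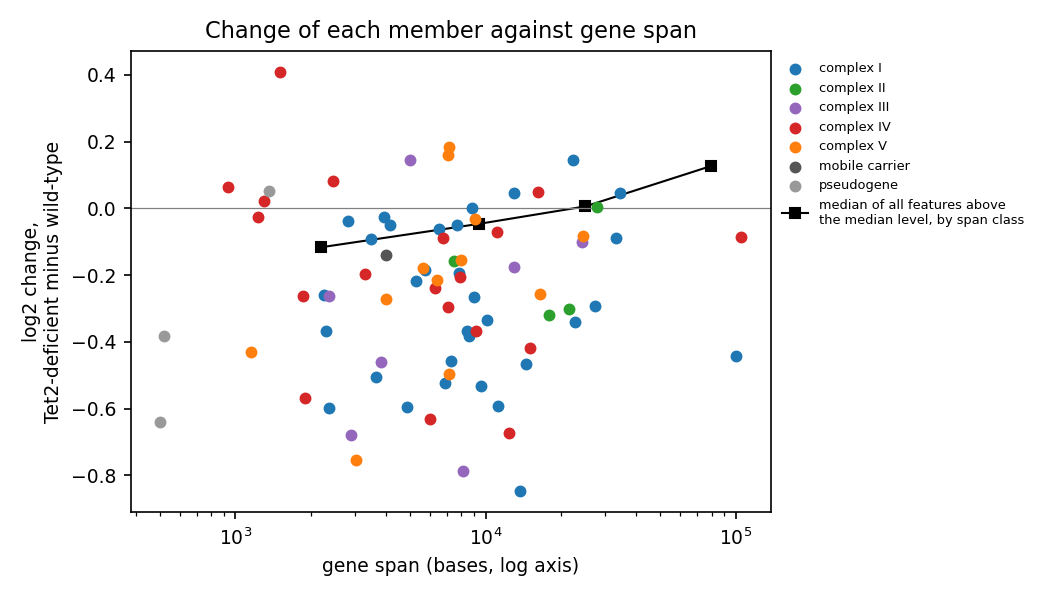
Log2 change of each member (points, coloured by complex) against gene span in bases on a log axis; black squares are medians of all features above the median level in each of 4 classes of span. The squares climb from -0.12 to 0.13, while most members lie below them.

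Upstream windows in RefSeq were found for 61 members. Their median GC content was 56.4%, beside 52.4% over 27025 genes. The NRF1 letters (GCGCA, any base, then GCGC) stood in 9 of the 61 (14.8%, beside 4.23% of all genes), CCGGAAG in 10 (16.4%, beside 7.83%), AANATGGCG of YY1 in 3 (4.92%, beside 1.29%) and TATAAA in 6 (9.84%, beside 14.3%), on either strand and in any window of a gene; overlaps between motifs were not removed. Members with the NRF1 letters had a median change of -0.16 and the others -0.27, and members with CCGGAAG -0.35 and the others -0.26. A match describes the letters only. In 19 of the 61 members (31.1%, beside 12.2% of all genes in the table) another gene started on the opposite strand within 1000 bases upstream. Of these partners 17 were measured, with a median change of -0.00. Without overlap 1 was lower (background over all features 12.2%) and 2 were higher (background 9.74%). Uqcrh (-0.79) and Lrrc41 (-0.00) start 199 bases apart, and Atp5md (-0.49) and Pdcd11 (0.33, adjusted p = 0.206) 119 bases apart. Ndufb5 (-0.47) and the mitochondrial ribosomal gene Mrpl47 (-0.30, adjusted p = 0.355) start 308 bases apart and were both lower in every Tet2-deficient array.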

How the data were processed

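RNA of 3 Tet2-/- and 3 wild-type cultures was hybridised to 1 Affymetrix array each. The deposited log2 values were made by the authors with RMA in affy 1.36.1, per the submitters' processing notes. RMA corrects background, equalises the distributions of the arrays and summarises probes, so small shifts common to many genes may be reduced. Features were named through the platform's probe table: 23185 of 25206 had 1 symbol, and the 78 members matched RefSeq (GRCm38.p6). The deposited log2 values were used as they stand, with no filter. limma 3.58.1 in R 4.3.3 fitted the groups by lmFit and eBayes, with Benjamini-Hochberg adjustment over all 25206 features. The labels call the samples biological replicates without tying each to 1 mouse, so p-values measure the spread between these 6 samples. On data simulated like these, with 200 features changed, 76% of changes of 1 log2 unit and 100% of 2 units were called; smaller changes were not simulated. The members, the gene lists and the comparisons were chosen with earlier results of these data known. The text names the core subunits and paralogous forms, all members past the threshold, in each complex the largest changes and smallest p-values, and up to 3 genes of each other list by p. Python 3.11.15 made the counts and matplotlib 3.10.9 the plots. Alternatives were array centring, cyclic loess, a filter on dim features, a replicate block, trended and robust eBayes, array weights, leaving out each array, features with 1 symbol, removal of a gene span and level trend, and other thresholds. The counting of Ndufa4 and Ndufa4l2 with complex I, the leaving out of pseudogenes or dim members and the counts without overlap under other scalings were chosen after seeing the data. RNA quality and scan batches are given by no source used here, and precision is limited by how few arrays there are.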

Additional observations from a re-analysis of the deposited data

How the results depend on the processing

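No complex median and no median over all members changed sign in any setting run, and no member rose in any. Members with a negative change, 64 as reported, numbered 57 after centring, 68 with cyclic loess, 67 after removal of the span and level trend and 59 to 67 when 1 array was left out. Members past the threshold, 2 as reported, numbered 1 with arrays centred on their medians, 6 with cyclic loess, 11 among features above the median level, 15 with trended and robust eBayes, 8 with array weights and 0 to 2 when 1 array was left out. They numbered 0 at an adjusted p under 0.01 and 11 under 0.1. Features past the threshold, 240 as reported, numbered 846 above the median level, 814 with trended and robust eBayes, 498 with array weights, 21 under 0.01, 791 under 0.1 and 11 to 155 when 1 array was left out, lowest without Tet2-deficient replicate 3. The share of calls that were higher was 67.9% as reported, 78.8% after centring, which moved the median of all features to 0.03, and 47.7% after removal of the span and level trend. Same-numbered arrays of the groups deviated with correlations of 0.084, 0.191 and 0.025, beside -0.137 to 0.064 for arrays with different numbers. Whether same-numbered arrays share more than a number was not tested. With the replicate block 230 features and 0 members passed (Atp5e 0.0508, Ndufv3 0.0693). After centring, the median was -0.16 for all members, -0.21 for complex I, -0.13 for complex IV and -0.13 for complex V. With cyclic loess it was -0.32 for complex I and -0.23 for complex V. Leaving out 1 array gave -0.25 to -0.21 for all members, -0.33 to -0.24 for complex I and -0.40 to -0.21 for complex III. Counting Ndufa4 and Ndufa4l2 with complex I, chosen after seeing the data, gave -0.088 for complex IV. The causes were not tested. Of the values for single members, 1031 kept their side of the threshold, 35 passed it only under the alternative and 15 lost it. Among members under the median level of all features, standard errors ran from 0.11 (Ndufa4l2) to 0.29 (Ndufb3).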

Other observations

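Counts by chromosome were uneven, as was noticed after the values were seen. Of 6 members on chromosome 17 (Ndufa7, Cox7a2l, Ndufb10, Ndufv3, Ndufv2 and Ndufa11), 5 were lower in every Tet2-deficient array and the median change was -0.59, beside 13.2% and -0.05 over all 1117 features of that chromosome. All 3 members on chromosome 8 (Cox4i1, Ndufb7 and Ndufa13) were lower in every array too, beside 13.1% of its features. On chromosome 10 it was 2 of 6 (Uqcr11 and Ndufa4l2), with a median of 0.05, beside 11.8% of its features. On chromosome 7 it was 2 of 8, also beside 11.8%. These counts were not tested.

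Of 8 genes known to answer the stimulus that all cultures received, 1 rose, 4 were higher and 2 lower without overlap, and the median change was 0.18. Over all features 0.647% rose, and 9.74% were higher and 12.2% lower without overlap. Of features above the median level, where all 8 lay, 16.6% were higher and 14.5% lower without overlap. Il6 rose in the Tet2-deficient macrophages (1.30 ± 0.24, adjusted p = 0.0477), and Il1b had 0.63 ± 0.13, adjusted p = 0.0553 and Tnf 0.32 ± 0.12, adjusted p = 0.221, all with higher values in every Tet2-deficient array. Cxcl10 was also higher in each (0.32 ± 0.13). Cxcl9 (-0.22 ± 0.12) and Nos2 (-0.21 ± 0.12) were lower in each, and Acod1 (0.05 ± 0.11) and Irf1 (0.04 ± 0.11) had overlapping groups.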
